A study of Mus musculus with 8 samples.

Results

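Slc38a3 encodes a sodium-coupled transporter that carries glutamine into proximal tubule cells, and it is described here with 6 genes of the steps that follow, Glud1, Pck1, Glul, Slc9a3, Rhbg and Rhcg. The 7 genes were taken by symbol, each matched 1 of the 47729 genes in the deposited tables, and all 7 passed the filter on low counts. Slc38a3 was taken because it differed between these same kidneys, so its difference is given as a description and is not tested again, while the other 6 were added for their roles. The RNA came from whole kidneys taken on postnatal day 8. In 4 libraries, labelled nephron specific Kctd1 knockout, the mice were Six2Cre+KCTD1fl/fl, so that both floxed copies of Kctd1 were exposed to a Cre recombinase driven by Six2. The other 4 libraries, labelled wildtype, came from control littermates whose own floxed or Cre alleles are not given in the sources used here. Six2 marks nephron progenitors, whose descendants form the nephron from glomerulus to connecting tubule, and the collecting duct arises from another lineage. Nothing in the labels ties each library to an animal of its own, and the p-values speak only to the spread among these libraries.

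The kidney makes ammonium from glutamine to excrete acid. Proximal tubule cells take up glutamine from the blood side through the Slc38a3 protein, mitochondrial enzymes, glutamate dehydrogenase among them, release ammonium from it, and the carbon skeleton leaves by way of phosphoenolpyruvate carboxykinase toward glucose. The sodium proton exchanger NHE3 helps move ammonium into the tubule lumen, and the Rhesus glycoproteins Rhbg and Rhcg carry ammonia across cells of the connecting tubule and collecting duct. Glutamine synthetase runs the other way and uses ammonia up. In rodents with acidosis the proximal tubule is known to raise Slc38a3, glutamate dehydrogenase and Pck1.

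Totals were 14457760 to 20741076 counts per library. Kctd1 itself measured 22.4, 25.4, 25.8 and 23.5 CPM in knockout 1 to 4, against 32.1, 28.9, 32.6 and 32.6 CPM in wildtype 1 to 4, where CPM are counts relative to the library total, scaled between libraries with TMM factors. These groups do not overlap, and the difference of -0.38 ± 0.09 in log2 CPM (SE) was short of an adjusted p of 0.05 with edgeR (0.279) and past it with DESeq2 (0.0220). Markers of the proximal tubule, the intercalated cell and the principal cell were present in every library. In knockout 2 the ribosomal RNA row Rn18s-rs5 took 5.39% of the counts, against 0.361% to 1.14% in the other libraries, and 5 of the 7 genes had their lowest TPM there (transcript abundance relative to the library, corrected for transcript length). The share of all genes with their lowest TPM there was not counted, and the part of the ribosomal row in the low TPM was not tested. Genes and marker sums are compared between groups in CPM, while levels between genes and ratios within a library use TPM. The 7 principal cell markers of the collecting duct summed to 1158 CPM in knockout 1, against 727 to 832 CPM in the other 7 libraries, with Aqp2 at 478 CPM in knockout 1 and 149 to 202 CPM elsewhere. Knockout 2 and wildtype 3 also held abundant Xist reads, the pattern of females. In whole kidney, fewer cells of a type and less RNA per cell cannot be told apart.

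Slc38a3 measured 39.9, 38.8, 40.4 and 52.3 CPM in knockout 1 to 4, against 21.2, 19.8, 23.1 and 22.0 CPM in wildtype 1 to 4. Every knockout library lay above every wildtype library, and knockout 4 was the highest. The means were 42.8 ± 6.32 CPM in knockout, against 21.5 ± 1.41 CPM in wildtype (SD, n = 4 each), a fold of 1.99 (95% interval 1.68 to 2.36). The counts behind them were 585 to 1050 in the knockout libraries and 296 to 471 in the wildtype libraries. Slc38a3 was 1 of the 15 genes past an adjusted p of 0.05, 0.0809% of the 18548 genes tested, which is how it came to be chosen. Of the genes tested 0.0323% were higher and 0.0485% lower, and groups that do not overlap were found in 1.97% of genes with knockout higher and in 2.06% with knockout lower. Its adjusted p no longer passed in limma fits of log2(TPM + 1) and log2(TPM + 0.1), with log2 fold changes of 0.74 and 0.83, or without knockout 2 and wildtype 3, with 1.07. The gene (ENSMUSG00000010064) lies on chromosome 9 from 107650634 to 107669530 on the minus strand (GRCm38, GENCODE M21), has 14 annotated transcripts and overlaps no other annotated gene.

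**Figure D1:**
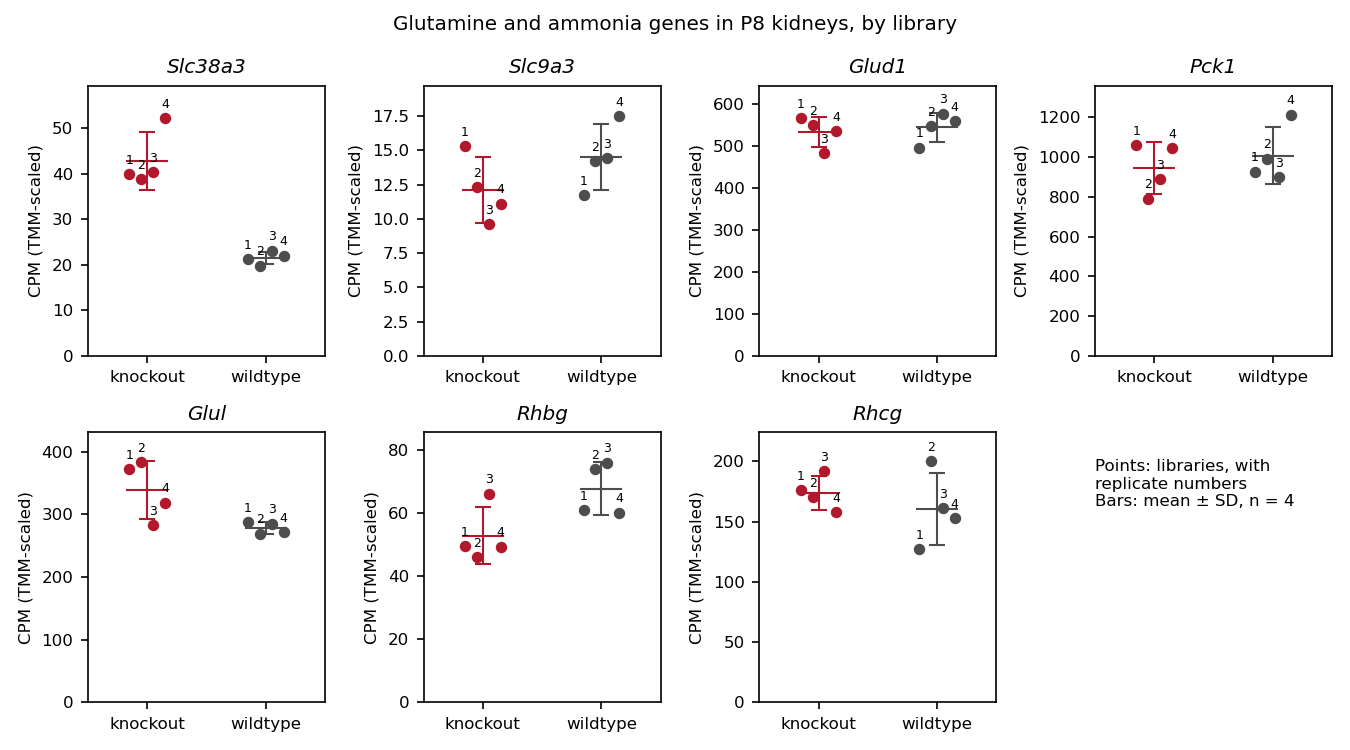
TMM-scaled CPM of the 7 genes in each library (points, with replicate numbers), with mean ± SD of the 4 knockout and 4 wildtype libraries and axes that start at 0. In Slc38a3 the knockout libraries (38.8 to 52.3 CPM) lie above all wildtype libraries (19.8 to 23.1 CPM), and in the other 6 genes the groups overlap.

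The remaining 6 genes had overlapping groups, and 0 of the 6 passed with edgeR or with DESeq2, which called 0.669% of the genes it tested (0.239% higher and 0.430% lower). By an unadjusted edgeR p under 0.05, Glul was higher and Rhbg was lower, where 6.18% of all genes met that mark (3.11% higher and 3.08% lower). On TPM, Glud1 and Pck1 were the most abundant of the 7 genes, at 212 ± 25.7 and 198 ± 42.2 TPM over the 8 libraries (SD), followed by Rhcg at 110.0 ± 16.2 and Glul at 80.5 ± 8.99 TPM. Rhbg followed at 17.3 ± 4.05, Slc38a3 at 7.70 ± 2.95 and Slc9a3 at 2.87 ± 0.715 TPM. Pooled over the 8 libraries, the ranges of Glud1 and Pck1, of Pck1 and Rhcg, of Rhcg and Glul and of Rhbg and Slc38a3 overlapped. Those of Glul and Rhbg and of Slc38a3 and Slc9a3 did not. Within every library Pck1 lay above Rhcg, Rhcg above Glul, Glul above Rhbg, Rhbg above Slc38a3 and Slc38a3 above Slc9a3. Glud1 lay above Pck1 except in wildtype 4, at 243 against 269 TPM. Slc38a3 thus stood well below Glud1 and Pck1.

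**Figure D2:**
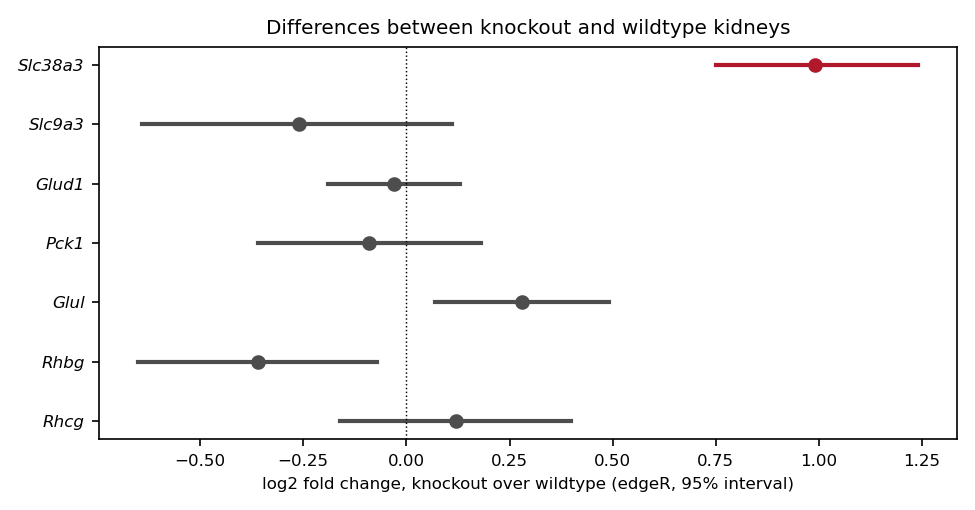
Log2 fold change of knockout over wildtype from edgeR with its 95% interval for the 7 genes, and a dotted line at no difference. The interval of Slc38a3 (0.75 to 1.24) is a description, since the gene was chosen on this difference, and the points of the other 6 lie between -0.36 and 0.28.

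Slc38a3 was described further within its family, whose members move small neutral amino acids. In TPM, Slc38a3 had 9.69, 7.11, 9.65 and 13.3 in knockout 1 to 4, against 5.39, 4.77, 5.78 and 5.84 in wildtype 1 to 4. It made up 10.4% ± 1.92 of the summed TPM of the 11 SLC38 genes in knockout, against 5.59% ± 0.480 in wildtype (SD, n = 4 each). In TPM the family was led by Slc38a10, Slc38a6 and the widely expressed Slc38a2. Slc38a10 had 171 ± 10.2 CPM in knockout, against 173 ± 8.71 CPM in wildtype, Slc38a6 had 131 to 208 CPM in knockout, against 128 to 165 CPM in wildtype, and Slc38a2 had 199.8 ± 7.38 CPM in knockout, against 201 ± 13.1 CPM in wildtype. Of the 10 other family genes 9 were tested, and 0 passed in either direction with edgeR or DESeq2. At an unadjusted edgeR p under 0.05 the count was also 0. Their median log2 fold change was -0.06, against 0.00 over all genes tested.

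Slc38a5, the family member closest to Slc38a3 in transport mode, was scarce and varied between libraries. It had 1.26, 0.556, 0.345 and 0.199 CPM in knockout 1 to 4, against 2.44, 0.668, 1.42 and 0.192 CPM in wildtype 1 to 4. The groups overlapped, and edgeR gave an adjusted p of 0.916. Slc38a3 supplied 94.7% to 99.4% of the summed TPM of the pair in knockout, against 82.9% to 98.4% in wildtype. Slc38a9, a lysosomal amino acid sensor, had 20.6 ± 3.70 CPM in knockout, against 24.9 ± 2.67 CPM in wildtype (edgeR, adjusted p = 0.837). Slc38a7, a lysosomal glutamine exporter, had 25.5 ± 4.38 CPM in knockout, against 21.6 ± 1.69 CPM in wildtype (edgeR, adjusted p = 0.846).

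**Figure D3:**
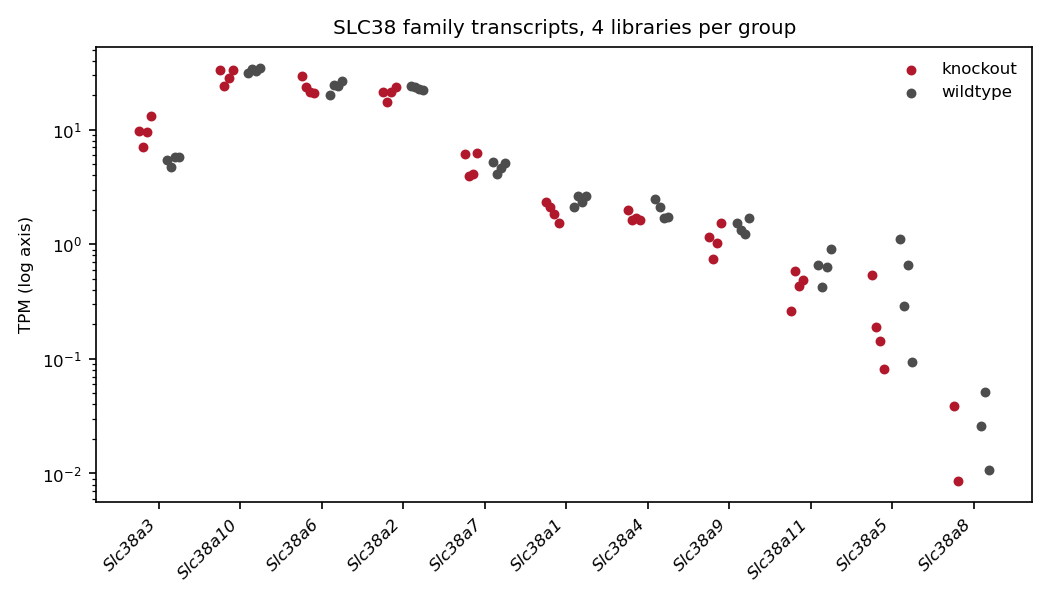
TPM of the 11 SLC38 genes in each of the 4 knockout and 4 wildtype libraries, on a log axis; libraries at 0 for Slc38a8 are not drawn. Slc38a3 is the 1 gene of the plot whose knockout libraries (7.11 to 13.3 TPM) all lie above its wildtype libraries (4.77 to 5.84 TPM).

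The level of Slc38a3 was set against 3 lists of proximal tubule markers within each library, as a description. Per 1000 summed TPM of 8 markers of the whole proximal tubule, Slc38a3 had 4.29, 4.54, 4.22 and 5.31 TPM in knockout 1 to 4, against 2.28, 2.21, 2.56 and 2.23 TPM in wildtype 1 to 4. The step between the groups was thus present in the marker-scaled values, and on this scale knockout 2 lay among the other knockouts. Per 1000 summed TPM of 6 early markers Slc38a3 had 43.2 ± 5.55 TPM in knockout, against 19.2 ± 0.291 TPM in wildtype, and per 1000 summed TPM of 8 late markers 54.9 ± 6.60 TPM in knockout, against 32.1 ± 3.35 TPM in wildtype (SD, n = 4 each). The marker sums overlapped between groups, at 6768 to 7224 CPM in knockout, against 6793 to 7373 CPM in wildtype for the whole tubule, 756 to 869 CPM in knockout, against 775 to 873 CPM in wildtype for the early part, and 739 to 899.7 CPM in knockout, against 626 to 846 CPM in wildtype for the late part. Of these 22 markers 0 passed with edgeR or DESeq2. At an unadjusted edgeR p under 0.05, 2 early markers were higher and 1 lower, and 1 late marker was higher and 1 lower, where 6.18% of all genes met that mark. The lower early marker was Slc5a2, the sodium glucose cotransporter SGLT2, named after its values were seen, at 214 ± 27.3 CPM in knockout, against 274 ± 23.4 CPM in wildtype (edgeR, adjusted p = 0.450). Its groups do not overlap, as for 4.03% of all genes, and as the most abundant early marker it enters the early-scaled values of Slc38a3.

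**Figure D4:**
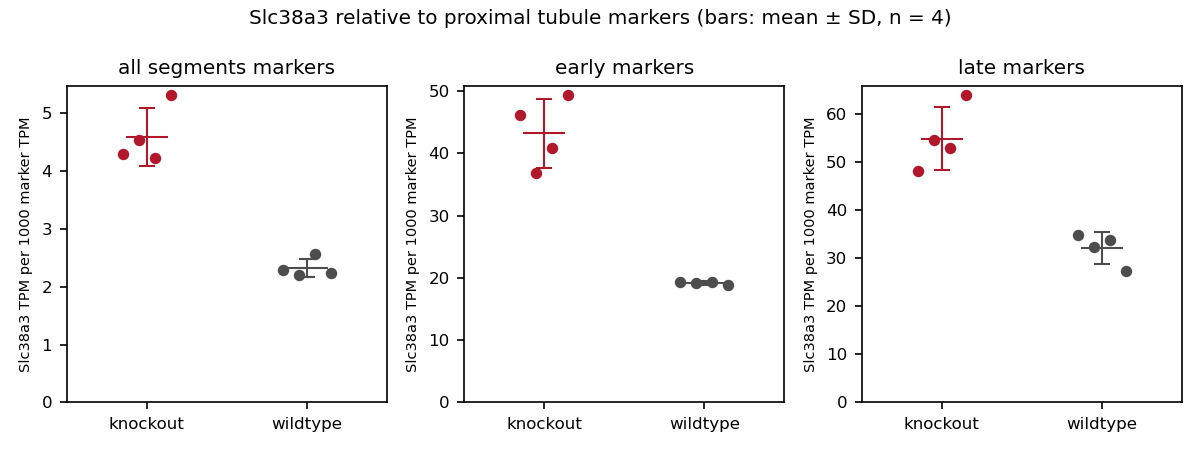
Slc38a3 TPM per 1000 summed TPM of proximal tubule markers in each library, for 8 markers of all segments, 6 early and 8 late markers; points are libraries and bars are mean ± SD. Knockout libraries lie above wildtype libraries in all 3 panels, at 4.22 to 5.31 against 2.21 to 2.56 for the markers of all segments.

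Slc38a3 and Glul are also strongly expressed in liver, so liver markers were read beside them. Of 8 liver markers 4 were too low to test, and the other 4, led by Serpina1a, summed to 40.9 to 101 CPM in knockout, against 57.0 to 65.2 CPM in wildtype. Albumin set knockout 1 further apart than this sum did, and Tat was above 0 only there, as given under other observations. Knockout 1 held the 101 CPM of the sum. Its Slc38a3 level of 39.9 CPM lay within the range of knockout 2 to 4, and so did its Glul level of 372 CPM, against 283 to 383 CPM in those libraries, though in TPM its Glul was the highest of all 8 libraries (98.5). Without knockout 1 the log2 fold change of Glul was 0.24, against 0.28 with it. Markers of adrenal cortex summed to at most 1.23 TPM in any library. Over all marker lists, those of vessel, blood, fat and stroma included, 0 genes passed with edgeR or DESeq2, and the median log2 fold change of the 6 endothelial markers was -0.16, with all 6 below 0.

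Glud1, glutamate dehydrogenase, turns glutamate into ammonium and alpha-ketoglutarate. It measured 566, 550.1, 483 and 535 CPM in knockout 1 to 4, against 496, 547, 577 and 559 CPM in wildtype 1 to 4. The groups overlapped, with knockout 3 the lowest library, and the fold of 0.979 had a 95% interval of 0.874 to 1.10 (edgeR, adjusted p = 0.979).

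Pck1, phosphoenolpyruvate carboxykinase of the cytosol, commits the carbon of glutamine to glucose. It measured 1061, 790.1, 888 and 1044 CPM in knockout 1 to 4, against 926, 992, 899 and 1213 CPM in wildtype 1 to 4. The lowest library was knockout 2 and the highest was wildtype 4, and the fold was 0.939 (95% interval 0.779 to 1.13; edgeR, adjusted p = 0.950). Pck2, the mitochondrial form, had 51.1 ± 3.21 CPM in knockout, against 47.1 ± 2.96 CPM in wildtype (edgeR, adjusted p = 0.908). In TPM, Pck1 exceeded Pck2 21.4 to 28.6 times in knockout, against 23.3 to 32.9 times in wildtype.

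Glul, glutamine synthetase, binds ammonia to glutamate and so lowers net ammonia output. It measured 372, 383, 283 and 319 CPM in knockout 1 to 4, against 288, 269, 285 and 272 CPM in wildtype 1 to 4. Knockout 1, 2 and 4 lay above every wildtype library and knockout 3 lay among them. The means were 339 ± 46.8 CPM in knockout, against 279 ± 9.56 CPM in wildtype (SD, n = 4 each), and the fold of 1.22 had a 95% interval of 1.05 to 1.41. With an unadjusted p of 0.0128 it missed the threshold over all genes (edgeR, adjusted p = 0.590, and 0.208 to 0.921 over its alternatives). Glul lies on chromosome 1 from 153899944 to 153909723 and its first bases overlap Teddm2 on the other strand, which held at most 26 counts in any library.

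The Kctd1 protein is known to repress AP-2 transcription factors, so the stretch before the start of these genes was searched for the AP-2 consensus GCCNNNGGC, which reads the same on both strands. RefSeq promoters (GRCm38.p6) matched 5 of the 7 genes and did not match Slc38a3 and Rhbg. In the 250 bases before the start, Glud1, Glul and Pck1 each held 1 match, and Rhcg and Slc9a3 held 0. A match was present in 13.7% of the 32851 promoters searched, with those of 1 chromosome left out. The 3 with a match are shown 5′ to 3′ on the gene's own strand, with the match in capitals.
Glud1: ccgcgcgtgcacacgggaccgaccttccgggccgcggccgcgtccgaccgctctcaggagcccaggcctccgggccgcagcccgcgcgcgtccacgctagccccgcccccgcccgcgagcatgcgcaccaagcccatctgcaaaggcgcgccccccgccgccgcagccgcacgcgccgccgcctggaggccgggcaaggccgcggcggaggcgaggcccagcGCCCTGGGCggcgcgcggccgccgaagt
Glul: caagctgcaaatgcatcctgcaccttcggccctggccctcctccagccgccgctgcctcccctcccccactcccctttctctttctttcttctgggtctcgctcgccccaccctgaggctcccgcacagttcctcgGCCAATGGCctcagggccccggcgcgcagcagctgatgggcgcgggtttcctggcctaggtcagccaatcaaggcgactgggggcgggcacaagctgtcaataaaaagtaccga
Pck1: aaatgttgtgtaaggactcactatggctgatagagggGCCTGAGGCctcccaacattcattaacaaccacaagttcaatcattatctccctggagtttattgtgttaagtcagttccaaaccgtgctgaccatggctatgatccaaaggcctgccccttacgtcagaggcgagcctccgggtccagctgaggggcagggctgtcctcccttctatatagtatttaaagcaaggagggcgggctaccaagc
They stand at chr14:34310477-34310726, chr1:153899679-153899928 and chr2:173152823-173153072, all on the plus strand, and the matches begin at positions -28, -114 and -213 from the start. The GC share was 82.0% before Glud1, 64.8% before Glul and 50.8% before Pck1. All 3 genes missed the threshold as given above, and a match in letters is not a bound site.

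Slc9a3, the apical sodium proton exchanger NHE3 of proximal tubule and thick ascending limb, was the least abundant of the 7 genes. It measured 15.3, 12.3, 9.59 and 11.1 CPM in knockout 1 to 4, against 11.7, 14.2, 14.4 and 17.5 CPM in wildtype 1 to 4. Knockout 1 was higher than 3 of the wildtype libraries, and knockout 3 and 4 lay below all of them. The fold was 0.834 with a 95% interval of 0.644 to 1.08 (edgeR, adjusted p = 0.898), from 139 to 243 counts in the knockout libraries and 192 to 364 in the wildtype libraries.

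Of 17 genes for other sodium proton exchangers and for proteins that bind or regulate NHE3, 0 passed with edgeR or DESeq2. At an unadjusted edgeR p under 0.05, 1 was higher and 1 lower, where 6.18% of all genes met that mark. Slc9a3r2, which encodes an NHE3 scaffold, was the lower one, at 116 ± 6.18 CPM in knockout, against 129 ± 4.25 CPM in wildtype, with groups that do not overlap, as for 4.03% of all genes (edgeR, adjusted p = 0.775). Chp1, an obligate partner of these exchangers, was the higher one, at 122 ± 4.48 CPM in knockout, against 99.4 ± 17.7 CPM in wildtype (edgeR, adjusted p = 0.706). The exchanger gene Slc9a7 had 1.10 ± 0.403 CPM in knockout, against 1.68 ± 0.408 CPM in wildtype (edgeR, adjusted p = 0.852).

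Rhbg, the basolateral ammonia channel of distal cells, measured 49.6, 46.0, 66.2 and 49.4 CPM in knockout 1 to 4, against 60.9, 74.0, 76.0 and 60.2 CPM in wildtype 1 to 4. Knockout 1, 2 and 4 lay below every wildtype library and knockout 3 lay among them. The means were 52.8 ± 9.05 CPM in knockout, against 67.8 ± 8.38 CPM in wildtype (SD, n = 4 each), and the fold was 0.779 (95% interval 0.639 to 0.950). It missed the threshold over all genes (edgeR, unadjusted p = 0.0184 and adjusted p = 0.666, with 0.217 to 0.973 over its alternatives).

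Rhbg (chromosome 3, 88242874 to 88254709, minus strand) overlaps Gm38392 over nearly all of its length, a protein-coding gene annotated on the same strand, so reads could be divided between them. Gm38392 had 205, 263, 70 and 326 counts in knockout 1 to 4, against 320, 263, 124 and 346 counts in wildtype 1 to 4, and knockout 3 and wildtype 3 were low. With both genes' counts added, a setting chosen after the data were seen, the level was 62.5, 60.7, 71.0 and 65.7 CPM in knockout 1 to 4, against 80.4, 91.5, 82.1 and 76.8 CPM in wildtype 1 to 4. The groups of the sum do not overlap, as for 4.03% of all genes, and its log2 fold change of -0.35 also missed the threshold (edgeR, adjusted p = 0.294).

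Rhcg, the channel that passes ammonia at the apical side of the collecting duct and connecting tubule, measured 176, 170.4, 192 and 158 CPM in knockout 1 to 4, against 127, 199.9, 161 and 153 CPM in wildtype 1 to 4. The knockout libraries lay within the range of the wildtype libraries, and the fold was 1.09 (95% interval 0.897 to 1.31; edgeR, adjusted p = 0.942). In TPM, Rhcg exceeded Rhbg 8.21, 8.56, 6.70 and 7.38 times in knockout 1 to 4, against 4.84, 6.25, 4.89 and 5.88 times in wildtype 1 to 4. Within Rhcg lies Gm45170, annotated on the same strand, which held 84 to 187 counts. The ratio of Rhcg to Rhbg was higher in every knockout library than in every wildtype library, is given without a test, and rests on Rhbg values that share the overlap with Gm38392.

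The intercalated cell, which holds both channels, was read through 8 markers, which summed to 741 to 832 CPM in knockout, against 720.5 to 784 CPM in wildtype. At an unadjusted edgeR p under 0.05, 3 of them were higher and 1 lower, where 6.18% of all genes met that mark. Without knockout 1, whose principal cell markers stood apart, the log2 fold change was -0.33 for Rhbg and 0.11 for Rhcg, against -0.36 and 0.12 with it. Per 1000 summed TPM of these markers, Rhbg had 72.5 ± 13.1 TPM in knockout, against 94.6 ± 14.8 TPM in wildtype, and Rhcg had 553 ± 65.5 TPM in knockout, against 517 ± 108 TPM in wildtype (SD, n = 4 each), with overlapping groups for both.

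The rest of the pathway was followed in 7 lists with 109 genes, of which 103 were tested. With edgeR 0 passed, and DESeq2 called 1 higher and 0 lower. At an unadjusted edgeR p under 0.05, 7 of the 103 were higher and 5 lower, against 6.18% of all genes tested in either direction. Groups that do not overlap were found for 3 of the 103 with knockout higher and 3 with knockout lower. Over all genes tested the shares were 1.97% and 2.06%. Of the 103 log2 fold changes 53 were positive, and their median was 0.00, as over all genes tested.

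The gene that DESeq2 called was Prodh, proline dehydrogenase, which opens a route from proline to glutamate. It measured 30.1, 30.4, 29.9 and 32.2 CPM in knockout 1 to 4, against 25.0, 22.0, 21.8 and 21.8 CPM in wildtype 1 to 4, and the groups do not overlap. The log2 fold change was 0.44 ± 0.08 (SE; adjusted p = 0.00239 with DESeq2 and 0.147 with edgeR, up to 0.775 over its alternatives). Of the 18 tested genes of glutamate metabolism, 9 were positive and 9 negative. Gpt2, a mitochondrial alanine transaminase, had 25.8 ± 2.84 CPM in knockout, against 29.1 ± 2.49 CPM in wildtype (edgeR, adjusted p = 0.876), and the aspartate-glutamate carrier gene Slc25a13 had 88.7 ± 9.21 CPM in knockout, against 81.1 ± 9.73 CPM in wildtype (edgeR, adjusted p = 0.924).

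Among 11 other carriers of glutamine and related amino acids 0 passed with edgeR or DESeq2, and 0 had an unadjusted edgeR p under 0.05. The apical neutral amino acid carrier gene Slc6a19 had 58.5 ± 2.72 CPM in knockout, against 53.9 ± 5.32 CPM in wildtype (edgeR, adjusted p = 0.912). Slc3a2, the heavy chain of several exchangers, had 248 ± 21.9 CPM in knockout, against 269 ± 2.66 CPM in wildtype (edgeR, adjusted p = 0.865), and the aromatic amino acid carrier gene Slc16a10 had 46.1 ± 3.38 CPM in knockout, against 40.9 ± 5.02 CPM in wildtype (edgeR, adjusted p = 0.859). The 14 genes of gluconeogenesis split into 7 positive and 7 negative, 0 passed with edgeR or DESeq2, and 0 had an unadjusted edgeR p under 0.05. Hnf4a, a transcription factor of the proximal tubule, had 234 ± 8.41 CPM in knockout, against 210.4 ± 19.4 CPM in wildtype (edgeR, missing the threshold), and the malate dehydrogenase gene Mdh1 had 686 ± 19.7 CPM in knockout, against 741 ± 23.5 CPM in wildtype, with groups that do not overlap (edgeR, adjusted p = 0.841).

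Of 20 tested genes of ammonia and acid transport, 0 passed with edgeR or DESeq2. At an unadjusted edgeR p under 0.05, 4 were higher and 4 lower, against 3.11% and 3.08% of all genes tested. The 3 higher and 1 lower intercalated cell markers counted above, Foxi1 among the higher, are part of these and not further genes. Foxi1, the transcription factor that specifies intercalated cells, measured 43.8, 52.2, 54.6 and 57.5 CPM in knockout 1 to 4, against 41.3, 42.3, 43.4 and 39.6 CPM in wildtype 1 to 4 (log2 fold change 0.32 ± 0.09; edgeR, adjusted p = 0.468). The groups do not overlap, with knockout 1 close to wildtype 3. Car12, a membrane carbonic anhydrase, had 367 ± 2.70 CPM in knockout, against 318 ± 24.8 CPM in wildtype (edgeR, adjusted p = 0.588). Its groups do not overlap either. Slc12a1, the thick ascending limb cotransporter that also takes up ammonium, missed the threshold as well (log2 fold change -0.26 ± 0.08, edgeR, adjusted p = 0.553).

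Acid sensors and regulators showed 0 calls with edgeR or DESeq2 among 14 tested genes. At an unadjusted edgeR p under 0.05, where 3.11% of all genes were higher and 3.08% lower, 1 of the 14 was higher. That gene was Ptprg, a receptor phosphatase known as a bicarbonate and carbon dioxide sensor, at 117 ± 29.0 CPM in knockout, against 88.0 ± 5.05 CPM in wildtype (edgeR, adjusted p = 0.722). The alkali-sensing receptor gene Insrr had 50.1 ± 3.10 CPM in knockout, against 43.9 ± 4.18 CPM in wildtype (edgeR, adjusted p = 0.814), and the endothelin gene Edn1 had 8.18 ± 2.06 CPM in knockout, against 6.53 ± 0.670 CPM in wildtype (edgeR, adjusted p = 0.859).

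**Figure D5:**
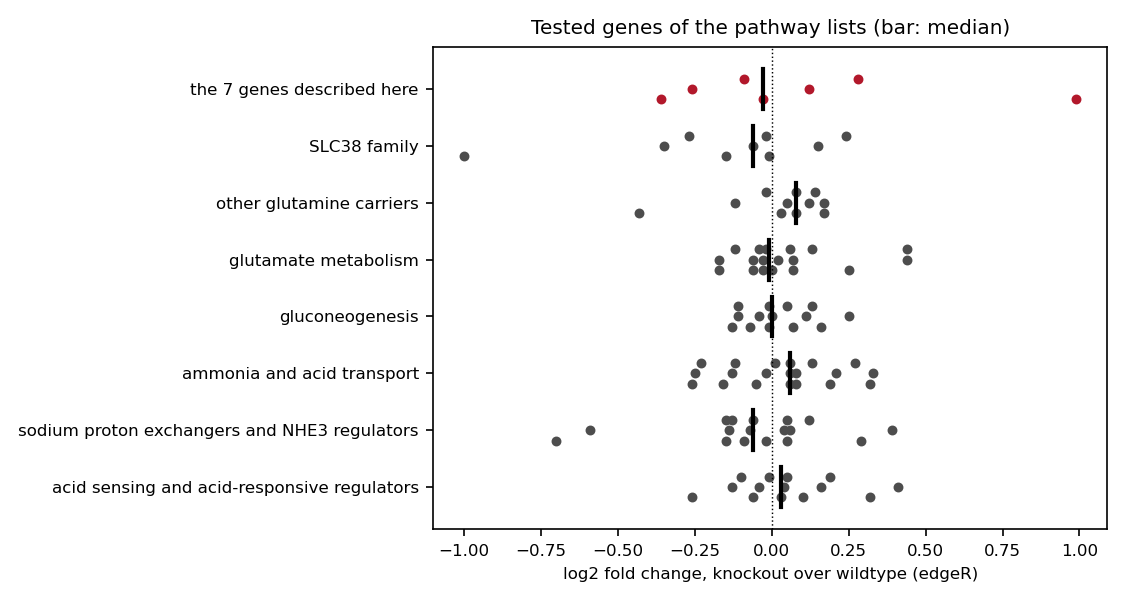
Log2 fold change of knockout over wildtype (edgeR) for the 7 genes and for the tested genes of 7 pathway lists, 1 point a gene, with a bar at each median. List medians lie between -0.06 and 0.08, and Slc38a3 at 0.99 is the point farthest to the right.

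The genes whose pattern over the 8 libraries was most like that of Slc38a3 were sought among 16874 genes with a mean of at least 1 CPM, by the root mean square difference of centred log2 CPM, which had a median of 0.54 over these genes. Tspan1, a tetraspanin, was the closest at 0.15, with 74.2 ± 6.26 CPM in knockout, against 35.6 ± 4.50 CPM in wildtype (SD, n = 4 each). Mfsd4b5, of the major facilitator superfamily, followed at 0.17, with 72.3 ± 5.94 CPM in knockout, against 42.2 ± 3.60 CPM in wildtype. Both had also been past the threshold in this contrast. Mlph, which encodes the vesicle-transport protein melanophilin, and Ttr, which encodes the thyroid hormone carrier transthyretin, each stood at 0.20, and the interferon-inducible gene Ifi203 at 0.21. Of the other 6 genes described here the nearest to Slc38a3 was Glul at 0.41, which ranked 523 of the 16874, and Rhbg at 0.71 was the farthest. The measure includes the step between the groups by which Slc38a3 was chosen, so it is a description.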

How the data were processed

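Libraries were grouped by their titles. Salmon, DESeq2 1.14.1 and mm10 are named in the submitters' processing notes. Per the file headers and values, the authors deposited estimated counts per gene rounded to whole numbers, and TPM with gene symbols. The count table carries no gene names; its 47729 rows were matched, in row order, with the distinct gene identifiers beside the TPM. The count-to-TPM ratio varied little between libraries, with a median SD of 0.00074 (log2) over 13251 genes, against 0.242 with rows shifted by 1.

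After filterByExpr, 18548 genes were tested with edgeR 4.0.16 in R 4.3.3 (TMM, robust quasi-likelihood test, genotype alone, two-sided) and Benjamini-Hochberg adjusted over all of them, with a threshold of 0.05. SE is the absolute log2 fold change over the square root of F, and intervals are 95%. The fit was checked on simulated counts. No pair of libraries within a group was alike within sampling noise. The genes and lists were chosen with earlier results of these data known. From each list the 3 genes with the smallest p are named. A further pathway gene is not reported here. Alternatives were other scalings and filters, DESeq2 1.42.0, limma 3.58.1 on counts and on log2(TPM + 1) and log2(TPM + 0.1), the replicate number as a block, and libraries left out.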

Additional observations from a re-analysis of the deposited data

Results flagged for a closer look

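In 28 named genes the 4 knockout and the 4 wildtype libraries were each searched for a library standing apart, 56 searches in all. Such a library turned up 3 times, and about 1 in 20 searches (2.8) would give one by chance. Slc38a3 had 52.3 CPM in knockout 4, against 38.8 to 40.4 CPM in the other knockout libraries, and without knockout 4 its log2 fold change was 0.88. Slc6a19 had 61.8 CPM in wildtype 4, against 50.8 to 51.5 CPM in the other wildtype libraries. Prodh had 25.0 CPM in wildtype 1, against 21.8 to 22.0 CPM in the other wildtype libraries.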

How the results depend on the processing

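The 15 genes called by edgeR became 154 with DESeq2, 27 with no filter on low counts, 6 with limma on log2(TPM + 1), 6 on log2(TPM + 0.1) and 3 without the libraries with Xist reads, and 10 to 52 when each library was left out in turn, with 52 without wildtype 4 and 29 without knockout 3. Slc38a3 was chosen on these same libraries, so its values over the alternatives describe it and do not test it. Its log2 fold change was 0.88 to 1.04 over the fits that left out 1 library. It was 0.74 on log2(TPM + 1) and 0.83 on log2(TPM + 0.1), scales on which the median of all tested genes moved to -0.11 and -0.14. Its adjusted p was at or above 0.05 in 3 of 19 alternatives, on both TPM scales and without the libraries with Xist reads (0.0715). The other 6 genes stayed short of the threshold in every alternative run. Glud1 (-0.07 to 0.01) and Pck1 (-0.15 to 0.01) crossed 0 when a library was left out, Glud1 without knockout 3 and Pck1 without wildtype 4. On both TPM scales Rhcg (-0.01), Slc6a19 (-0.02), Slc25a13 (-0.01) and Pck2 (-0.02 and -0.03) turned negative. With the replicate number as a block edgeR called 10 genes, and Slc38a3 had 0.98 (adjusted p = 0.0476). Same-numbered libraries did not deviate together (correlations -0.08 to 0.04, with 1 of 4 knockouts best matched by its own number). This check cannot show whether such libraries were prepared together. The promoter share was 12.3% for the AP-2 motif with 1 more free base in its middle. With that motif Glud1 held 2 matches, Glul and Slc9a3 held 1 each, and Pck1 and Rhcg held 0. At this depth and with 4 libraries a group, the 95% intervals of the folds span from 0.874 to 1.10 for Glud1 up to 0.644 to 1.08 for Slc9a3. The causes of these shifts were not tested.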

Other observations

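Albumin, the main secreted protein of hepatocytes, had 13.2 TPM in knockout 1, against 0.204 to 0.615 TPM in the other knockout libraries and 0.0407 to 0.392 TPM in the wildtype libraries. Tat, another liver gene, was at 0.473 TPM in knockout 1 and listed at 0 in the other 7 libraries. The part of this trace in the values of knockout 1 was not tested.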
